A study of Mus musculus with 6 samples.

Results

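*Xaf1* and *Glod4* are a pair of protein-coding genes on mouse chromosome 11 that are described here by the signal of their probes in neocortex lacking the RNA-binding protein KHSRP. Both stand in a list of changed probes that the study supplies with gene symbols, and the list was used only to find the probe that belongs to each symbol. The list gives symbols to 1788 of the 60915 probe names on the array, so further probes of either gene may lie among the rest. The 2 genes are 2 of 1714 genes with a symbol, and each has 1 probe in the list, ASMM10P048862 for *Xaf1* and ASMM10P047111 for *Glod4*. Both were chosen by these values, as their signal was higher in *Khsrp*-/- than in wild type neocortex, so their differences between genotypes are given as a description with no test.

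The study asked which RNAs change in level in the neocortex when KHSRP is lost. The study's methods state that adult males were used, and neocortical RNA of 3 *Khsrp*-/- and of 3 wild type samples was each put on its own 1-colour array. In the supplied list the Y-linked genes *Ddx3y*, *Eif2s3y*, *Uty* and *Kdm5d* stand among the probes lower in *Khsrp*-/-. *Uba1y*, also Y-linked, stands among the higher ones, as do *Eif2s3x* and *Kdm6a*, the X-linked counterparts of *Eif2s3y* and *Uty*. The sex of each sample was not tested, nor was its part in the differences. The *Khsrp*-/- mice carry a constitutive deletion in *Khsrp*, which lies on chromosome 17, and the line was bred to C57Bl/6 over several generations. The study's methods describe the mice used for RNA as littermates, so both groups share the C57Bl/6 breeding, and neither received a treatment. The deletion is present in every cell type. The genotype of chromosome 11 was not measured in any of the animals, so a strain-linked variant at *Xaf1* or *Glod4* was not tested. The sample labels give the tissue as cortex, while the headers of the supplied list call it PFC, the usual short form of prefrontal cortex.

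*Xaf1* encodes a zinc-finger protein that binds XIAP, a protein that holds caspases in check, and that counters its effect. It is an interferon-stimulated gene, one of the many genes that cells switch on when interferon reaches its receptor and STAT and IRF factors enter the nucleus. *Glod4* encodes a protein with a glyoxalase domain, the fold of enzymes that detoxify reactive aldehydes such as methylglyoxal, and its own substrate is not well known. KHSRP binds AU-rich elements of mRNAs and promotes their decay.

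The stretch around the start site of each gene is shown because it is where the factors that answer interferon would bind and because it lets the pair be compared in sequence. The sequences are from RefSeq in build GRCm38.p6 and run 5′ to 3′ on the strand of the gene, from 250 bases before the start site to 50 bases after it. Capitals mark the match to a motif, GAAANGAAA in *Xaf1* and TGACGTCA in *Glod4*. The *Xaf1* window is chr11:72301379-72301678 on the plus strand and the *Glod4* window is chr11:76243650-76243949 on the minus strand.
Xaf1: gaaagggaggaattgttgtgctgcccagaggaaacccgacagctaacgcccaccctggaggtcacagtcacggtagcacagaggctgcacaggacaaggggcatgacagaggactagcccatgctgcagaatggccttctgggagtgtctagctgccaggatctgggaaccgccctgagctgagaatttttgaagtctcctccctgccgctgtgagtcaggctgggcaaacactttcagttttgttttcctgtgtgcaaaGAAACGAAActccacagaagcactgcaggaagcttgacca
Glod4: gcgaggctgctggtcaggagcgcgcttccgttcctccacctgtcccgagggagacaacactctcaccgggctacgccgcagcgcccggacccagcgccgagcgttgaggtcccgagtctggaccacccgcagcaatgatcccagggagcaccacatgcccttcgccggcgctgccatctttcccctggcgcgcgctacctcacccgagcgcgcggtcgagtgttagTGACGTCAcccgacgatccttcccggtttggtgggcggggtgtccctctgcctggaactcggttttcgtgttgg

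The *Xaf1* window holds 6 CpG dinucleotides and has a GC content of 54.7%, close to the median of 7 CpG and 52.7% over the 27025 promoter windows of the same length. The *Glod4* window is far richer in both, with 33 CpG and a GC content of 67.3%. In *Xaf1* the letters GAAACGAAA begin at base 11 after the start site. They match GAAANGAAA, which resembles the element bound by IRF factors but has 1 base in the gap in place of 2. This variant is held on either strand by 3.20% of all windows. The same element with 2 bases in the gap in place of 1 had 0 matches in both windows and is held by 3.52% of all. In *Glod4* the palindrome TGACGTCA, the cyclic AMP response element, begins at position -24 and is held by 1.78% of all windows. The E-box CACGTG, found in 7.09% of all windows, and TATAAA, found in 14.1%, had 0 matches in either gene. These 5 motifs were chosen after the windows had been seen, and a match of letters says nothing of whether a factor binds there.

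Each array held 61500 spots that were not controls, of which 71.3% to 82.6% were well above background, and 0 were saturated. Signal on each array was scaled by subtracting the 75th percentile of its log2 values, so that scaled log2 values are relative to that point. The 48438 probes that passed the scanner's mark for a signal well above background on 3 or more arrays were kept. A shared scan time was read as a shared slide. *Khsrp*-/- array 1 and wild type array 3 shared slide 1, *Khsrp*-/- arrays 2 and 3 shared slide 2, and wild type arrays 1 and 2 shared slide 3, so that genotypes meet only on slide 1. *Snap25*, a neuronal SNARE protein gene, and *Slc1a2*, the glutamate transporter gene of astrocytes, were well above background on all 6 arrays, and *Khsrp* has no probe with a symbol here, so genotypes rest on the labels. The spread was wider among the *Khsrp*-/- arrays, with a median SD of 0.27 against 0.17 among wild type arrays, and 3 arrays per group limit how precisely any value is known.

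The *Xaf1* probe went from a dim spot in wild type neocortex to a bright one in *Khsrp*-/- neocortex. Before scaling, its intensity after background subtraction was 5589, 5998 and 6634 on the *Khsrp*-/- arrays, in order of their number. The wild type arrays gave 50.4, 54.4 and 49.9. The scanner software put the error of a single spot at 10% on the *Khsrp*-/- arrays and at 11.5% to 11.8% on the wild type arrays. All *Khsrp*-/- arrays were thus high, all wild type arrays were low, and the groups lay far outside each other's spread. The probe was well above background on all 6 arrays, so the wild type signal was dim but measurable. As scanned, the wild type spots read 77, 78.5 and 73 against a local background of 15, 14 and 18, which is 4.06 to 5.61 times the background. The *Khsrp*-/- spots read 237 to 321 times their local background.

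On the scaled log2 scale, *Xaf1* stood at 3.60, 4.09 and 4.27 on the *Khsrp*-/- arrays and at -3.27, -3.19 and -3.08 on the wild type arrays. The *Khsrp*-/- mean was 3.99 ± 0.35 (SD, n = 3) and the wild type mean was -3.18 ± 0.09 (SD, n = 3). The difference of 7.17 on the log2 scale is a 144-fold higher level, and even the lowest *Khsrp*-/- array exceeded the highest wild type array by 6.68. Without scaling, the mean intensity was 6074 ± 527 against 51.6 ± 2.45 (SD, n = 3 each), a ratio of 118. The ratios of single *Khsrp*-/- to single wild type arrays ran from 103 to 133. The size of the fold rests on how the background of the dim wild type spots is treated. With a normexp background correction the difference was 6.04, or 65.9-fold, while the lowest *Khsrp*-/- array still exceeded the highest wild type array by 5.64. In the authors' own normalized log2 values the probe stood at 12.47, 12.80 and 12.95 against 5.56, 5.65 and 5.90, a difference of 7.04.

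*Glod4* was well above background in both genotypes and higher in *Khsrp*-/- neocortex on every array. Its intensity was 1559, 1325 and 1348 on the *Khsrp*-/- arrays in order, and the wild type arrays gave 643, 699 and 635, with a software error of 10% for a single spot. The groups did not overlap, and the lowest *Khsrp*-/- array read 1.90 times the highest wild type array. Spots read 54.2 to 83.6 times their local background in *Khsrp*-/- and 32.7 to 45.4 times in wild type, far above background throughout. Scaled log2 values were 1.76, 1.91 and 1.97 in *Khsrp*-/- and 0.40, 0.49 and 0.59 in wild type neocortex. The means were 1.88 ± 0.11 and 0.49 ± 0.09 (SD, n = 3 each), and the difference of 1.39 is a 2.62-fold higher level. The order of the *Khsrp*-/- arrays changed with scaling, since array 1 was the highest before it and the lowest after it. The mean intensities were 1411 ± 129 and 659 ± 34.7 (SD, n = 3 each), a ratio of 2.14.

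**Figure D1:**
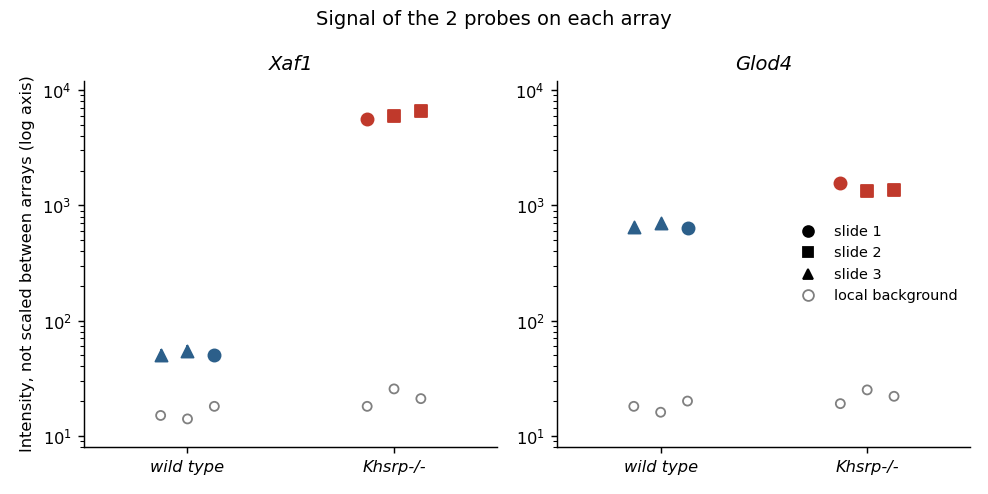
Background-subtracted intensity of the *Xaf1* and *Glod4* probes on each array, not scaled between arrays, on a log axis. Filled symbols are arrays, shaped by slide, with bars for the scanner software's error that are mostly hidden by the symbols, and open circles are the local background. *Xaf1* lies between 49.9 and 54.4 in wild type and between 5589 and 6634 in *Khsrp*-/-, and *Glod4* between 635 and 699 and between 1325 and 1559.

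Because the remaining slides held 1 genotype each, slide and genotype can be told apart only on slide 1. There *Khsrp*-/- array 1 exceeded wild type array 3 by 6.68 for *Xaf1* and by 1.17 for *Glod4* on the scaled log2 scale. Both values are the smallest of all the pairs of 1 *Khsrp*-/- and 1 wild type array, whose highest were 7.54 and 1.57. A fit with the slide as a fixed block takes its difference from this 1 pair alone, so it is no separate check. On this slide 49.5% of the probes tested were higher in the *Khsrp*-/- array, and 18.1% were higher by at least 0.32 on the log2 scale, the fold threshold of the study.

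Between arrays of the same genotype, *Glod4* varied less than most probes. Its pooled SD of 0.10 was larger than that of only 5.60% of probes, where the median was 0.245. *Xaf1* varied more in *Khsrp*-/- than in wild type neocortex, and its *Khsrp*-/- SD was larger than that of 65.5% of probes, against 22.4% for its wild type SD. Its SD without scaling was 0.12 in *Khsrp*-/- and 0.07 in wild type. The processed signal of *Khsrp*-/- array 3 alone carries a spatial correction, which changed *Xaf1* by a factor of 1.02 and *Glod4* by 0.987.

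Among all 48438 probes, the *Xaf1* difference ranked 1, and the next largest rise was 4.69. By the gap between the lowest *Khsrp*-/- and the highest wild type array it ranked 1 of 48364 probes with a value on every array, with the next gap at 3.60. *Glod4* ranked 352 by difference, 102 by gap, and 68 of 1674 by difference among genes with a symbol. A rise of at least 2-fold was seen for 1.87% of probes, and 12.4% of probes had every *Khsrp*-/- array above every wild type array, as both genes did, while 9.9% had every *Khsrp*-/- array below. Since both were chosen for this contrast, nothing is read from these shares. Rises of at least 4 on the log2 scale numbered 4 and falls of that size 2.

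**Figure D2:**
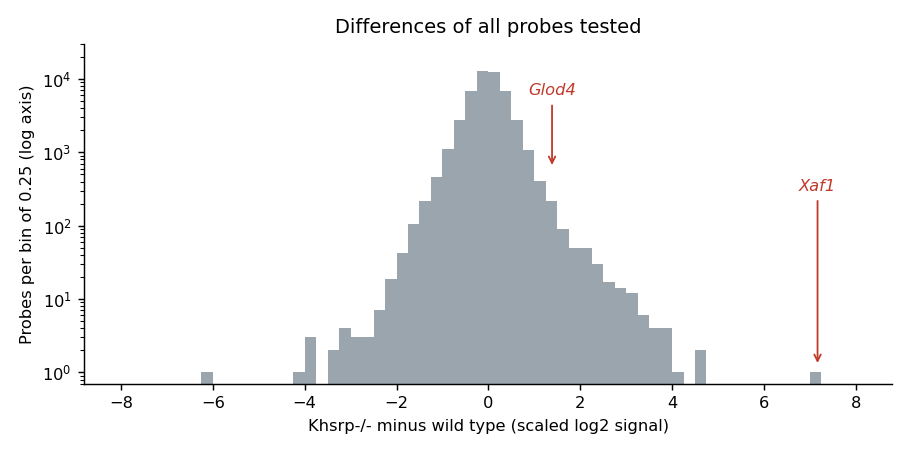
Number of probes, on a log axis, in bins of the difference between the mean scaled log2 signals of *Khsrp*-/- and wild type arrays, over the 48438 probes tested. *Xaf1* stands alone at 7.17, past the next largest rise of 4.69, and *Glod4* lies at 1.39 in the upper tail, where 906 probes rose by 1 or more.

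The place of the genes on chromosome 11 was taken from the order of protein-coding genes in the GRCm38.p6 reference. The order holds 95 protein-coding genes between *Xaf1* and *Glod4*, of which 6 have a symbol in the supplied list. No other annotated gene overlaps either gene. Because symbols were supplied only for probes picked as changed in these same arrays, the genes without a symbol were not analysed here, and no count of neighbours is independent evidence. The list as used here gives symbols to 1459 genes among the higher probes and to 261 among the lower ones, so any split between higher and lower genes with a symbol follows these sizes. Within 5 Mb of either gene lie 328 protein-coding genes, of which 6.10% had a symbol among the higher probes and 2.13% among the lower ones. The shares were 5.84% and 1.49% over chromosome 11, and 6.61% and 1.18% over all chromosomes.

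None of the 4 genes on either side of *Xaf1* had a symbol. The nearest that did was 4933427D14Rik, 5 genes before it, with scaled log2 values of -2.98, -3.50 and -3.05 in *Khsrp*-/- and -3.75, -4.16 and -3.89 in wild type neocortex. Its difference of 0.76 is small beside the 7.17 of *Xaf1*. On the other side, *Camkk1*, a kinase that acts on calcium/calmodulin-dependent kinases, lay 14 genes away and was lower in *Khsrp*-/-, with a difference of -0.80.

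*Glod4*, in contrast, lies next to a gene that was also higher. *Dbil5*, which encodes a member of the acyl-CoA-binding family, stood at 1.15, 1.46 and 1.5 in *Khsrp*-/- and at 0.02, 0.36 and 0.35 in wild type neocortex. Its difference was 1.13 on the scaled log2 scale, and 0.80 on the shared slide. The intensities were 990 ± 32.5 and 558 ± 74.7 (SD, n = 3 each), a ratio of 1.78. The groups did not overlap for *Dbil5* either. After centring each gene on its own mean, the 6 values of *Dbil5* and *Glod4* differed by a root mean square of 0.157, the 7th smallest distance to *Glod4* among the genes with a symbol. This distance depends on the size of the difference between genotypes, by which these genes were picked, and is no independent evidence. Whether the signal of one probe includes RNA of the other gene was not tested.

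Of the 25 other genes with a symbol within 5 Mb, *Khsrp*-/- neocortex had the higher level for 18 and the lower for 7, a split that the sizes of the blocks favour. Their median difference was 0.41 with scaling and 0.12 without it. The 18 higher genes had a median of 0.60 and lay between 0.34 and 1.13, beside a median of 0.56 over all higher genes with a symbol. *Dbil5* was the largest of them, and the next was 0.76. By limma at an unadjusted p under 0.05 and a difference of 0.32 or more in size, 13 of the 18 were called higher, beside 9.26% of all probes, and 7 of the 7 lower, beside 7.03%. Genes with a symbol were picked as changed on these same arrays, and of all higher ones tested 1275 of 1414 were called at this threshold. No local excess is therefore read from these calls. The methods' t-test called 14 of the 18 and 4 of the 7, beside 7.18% and 3.75% of all probes. With the slide as a fixed block limma called 4 of the 18 and 2 of the 7, beside 3.65% and 2.27%. After Benjamini-Hochberg adjustment limma called 0 of the 25, beside 0.0826% of all probes higher and 0.0124% lower, and the methods' t-test also called 0. With a trend and robust variances limma called 1 of the 7 lower genes after adjustment, beside 0.031% of all probes. The lower genes ran from -0.78 to -1.83, the last for *Alox12b*, an epidermal lipoxygenase gene. *Arrb2*, the β-arrestin 2 gene, had 3 probes that disagreed, with differences of 0.43, 0.53 and -1.49, and is counted by the last because that probe had the highest mean signal. On the shared slide 16 of the 18 higher genes kept their direction and 8 reached 0.32, with the 18 between -0.05 and 0.91. With the slide as a fixed block the median difference of the 25 genes was 0.091.

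**Figure D3:**
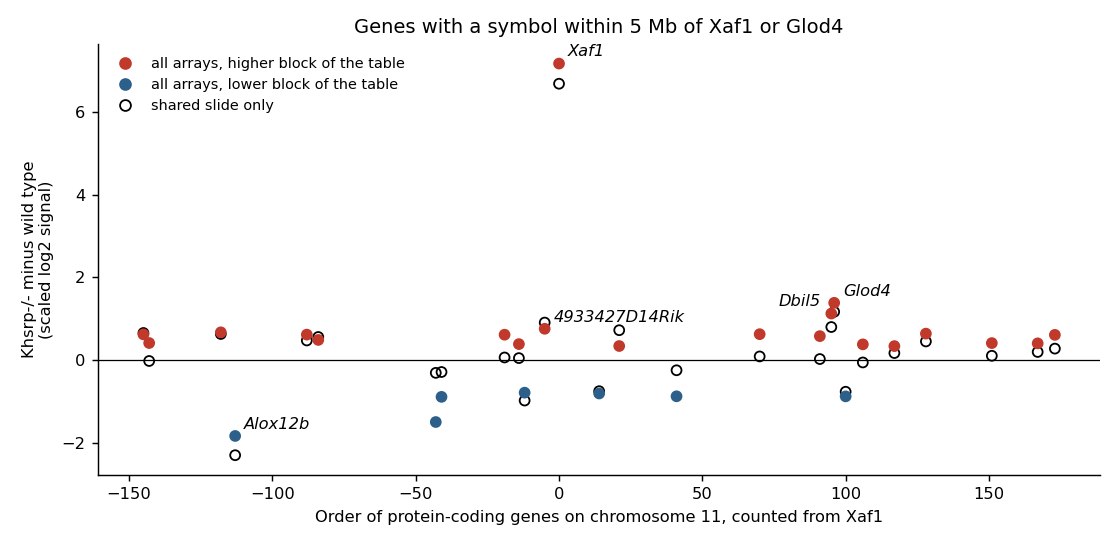
Difference in scaled log2 signal between *Khsrp*-/- and wild type arrays for the 27 genes with a symbol within 5 Mb of *Xaf1* or *Glod4*, placed by their order among protein-coding genes counted from *Xaf1*. Filled points use all arrays and open points only the slide that both genotypes shared. *Xaf1* is at 7.17, *Glod4* at 1.39 and *Dbil5* at 1.13, and the other higher genes do not pass 0.76.

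*Xaf1* was next set beside other genes that interferon switches on. A list of 75 such genes was taken, of which 17 had a symbol, or 22.7%, all among the higher probes and 0 among the lower ones. Over all chromosomes 6.61% of protein-coding genes had a symbol among the higher probes and 1.18% among the lower ones, of which the list names far fewer. All 17 were higher in *Khsrp*-/- neocortex, with a median difference of 0.63 and a range from 0.45 for *Bst2*, which tethers budding virions, to 3.38 for *Tlr7*, a sensor of single-stranded RNA. The *Xaf1* difference of 7.17 was more than any of these. Every *Khsrp*-/- array exceeded every wild type array for 17 of the 17, as for 12.4% of all probes. At the unadjusted threshold limma called 17, beside 9.26% of all probes, and the methods' t-test called 17, beside 7.18%. Among all higher genes with a symbol, limma called 1275 of 1414 at this threshold. After adjustment 0 were called by either, where limma called 0.0826% of all probes higher. Symbols were supplied only for changed probes, and the direction and the counts of the 17 are therefore no independent evidence. The remaining 58 genes of the list have no symbol and were not analysed here.

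The 3 largest of these differences belonged to a pair of RNA sensors and a chemokine. *Tlr7* stood at -1.70, 0.59 and -1.92 in *Khsrp*-/- and at -4.83, -4.34 and -4.0 in wild type neocortex, so that *Khsrp*-/- array 2 was well above the others. *Cxcl10*, a chemokine that draws T cells, stood at 0.88, 0.38 and 1.27 against -2.01, -0.97 and -0.79, a difference of 2.10. *Ifih1*, which encodes the double-stranded RNA sensor MDA5, did not rise well above background in wild type neocortex on 3 of 3 arrays, and its level was at least 2.77-fold higher in *Khsrp*-/-. *Ifih1* stood at -2.99, -3.60 and -3.73 in *Khsrp*-/-, where the array on the shared slide was the highest.

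The rest differed by less. *Ifi44*, of unsettled function, stood at 0.10, 0.69 and 0.95 in *Khsrp*-/- against -0.78, -0.52 and -0.87, a difference of 1.30. *Ifi27l2a*, a small mitochondrial protein gene, stood at 1.53, 2.18 and 1.91 in *Khsrp*-/- and at 0.03, 0.85 and 1.01 in wild type. The guanylate-binding protein gene *Gbp6* differed by 0.92, *Ifitm3*, which blocks viral entry at the membrane, by 0.69, and *Dtx3l*, a ubiquitin ligase, by 0.68. The 2′-5′ oligoadenylate synthase genes *Oas1a* and *Oas1g* differed by 0.62 and 0.55. *Usp18*, which removes the ubiquitin-like ISG15 from proteins and restrains interferon signalling, differed by 0.49. The other members, *Trim30a*, *Parp12*, *Ifi204*, *Ifi27* and *Cmpk2*, lay between 0.46 and 0.63. In all, 12 of the 17 genes differed by less than 1 on the log2 scale, and 5 by 1 or more.

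Slide moved with these values. On the shared slide all 17 were still higher in the *Khsrp*-/- array, but their median difference fell to 0.31, with a range from 0.15 to 2.3, and 8 of the 17 reached 0.32. With the slide as a fixed block limma called 2 of the 17 at the unadjusted threshold, beside 3.65% of all probes. Without scaling the median difference of the 17 was 0.34. For *Xaf1* the slide as a fixed block changed the difference from 7.17 to 6.68, the value of the shared slide, and no scaling changed it to 6.88.

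**Figure D4:**
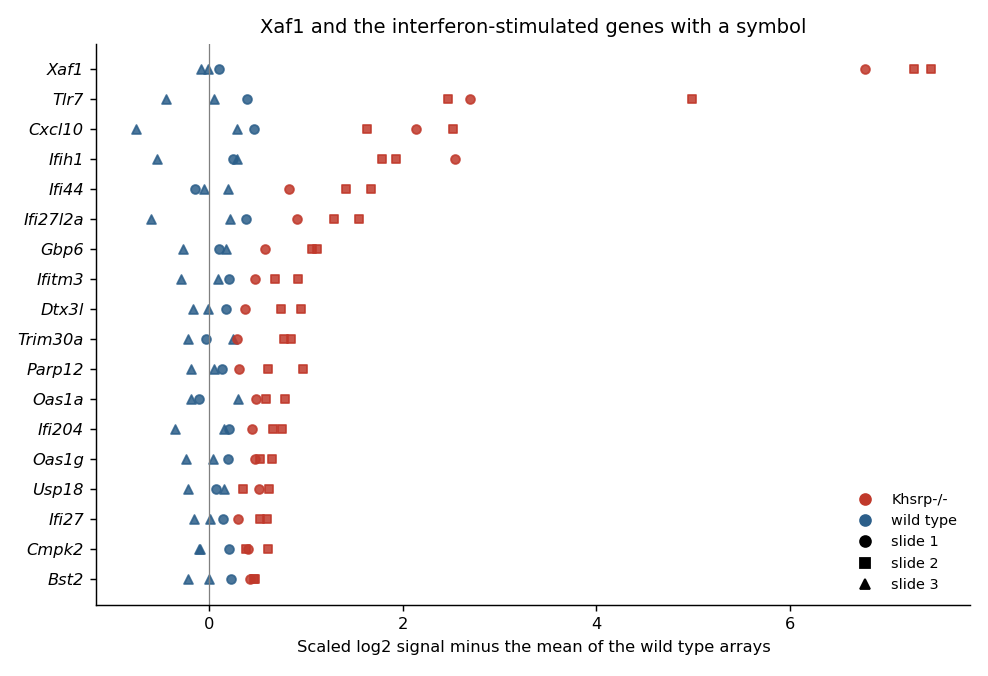
Scaled log2 signal on each array, minus the mean of the wild type arrays, for *Xaf1* and the 17 interferon-stimulated genes with a symbol, coloured by genotype and shaped by slide. The *Khsrp*-/- arrays of *Xaf1* lie past those of every other gene, *Tlr7* spreads widely, and the wild type points of *Ifih1* are not well above background, so that their level is only an upper bound.

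The proteins that *Xaf1* and *Glod4* work beside gave fewer values. Of 38 genes of XIAP and its relatives, of caspases and of the apoptosis machinery, 2 had a symbol. *Birc3*, which encodes the inhibitor of apoptosis protein cIAP2, stood at -2.06, -1.67 and -1.80 in *Khsrp*-/- and at -2.29, -2.27 and -2.51 in wild type neocortex, a difference of 0.52. *Birc5*, which encodes survivin, stood at -2.09, -1.54 and -2.16 against -2.84, -3.15 and -2.74, a difference of 0.98. Neither gene overlapped between genotypes, as for 12.4% of all probes, and both have a symbol only because they were picked as changed. *Xiap* itself had no symbol and was not analysed here, and 0 of 23 glyoxalase and aldehyde-handling genes had one.

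These are values from whole tissue, in which fewer cells of a type and less RNA per cell cannot be told apart. Of markers of the cells that carry much of an interferon response, 0 of 11 for microglia, 0 of 7 for endothelial cells and 0 of 9 for lymphocytes had a symbol, and 0 of 8 for oligodendrocytes. Their levels were therefore not analysed here, though the array may hold probes for them, and their part in the *Xaf1* and *Glod4* differences was not tested. A symbol was held by 1 of 12 neuron markers, *Snap25*, higher by 0.55, and by 2 of 8 astrocyte markers, *Slc1a2* and *Fabp7*, higher by 0.48 and 0.88. Of 7 striatum markers 1 had a symbol, *Drd1*, higher by 1.19. These have a symbol only because they were picked as changed, so they do not speak for the other markers of their lists. On the shared slide these 4 differed by 0.33, 0.15, 0.11 and 0.46. Their part in the differences of *Xaf1* and *Glod4* was not tested.

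The pattern over the 6 arrays was compared between genes by centring each on its own mean and taking the root mean square distance. The 5 genes with a symbol closest to *Glod4* were *CK137956*, *Kif15*, *Vrk1*, *Ribc1* and *Postn*, at 0.09 to 0.13, where the median gene with a symbol lay at 0.46. Their differences between genotypes were 1.18 to 1.29. *Kif15* encodes a spindle kinesin, *Vrk1* a chromatin kinase and *Postn* a matrix protein. No gene lay close to *Xaf1*, whose nearest were *Vmn1r198*, *Tnn*, *Zscan4e*, *Tlr7* and *Fam71f1*, at 1.77 to 2.07. Of those, *Vmn1r198*, *Tnn*, *Zscan4e* and *Fam71f1* had wild type signal that was not well above background on the 3 arrays, and their levels were at least 3.98-fold, 2.25-fold, 6.20-fold and 1.83-fold higher in *Khsrp*-/-. *Xaf1* was, unlike them, well above background in both genotypes.

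The differences of both genes kept their direction under every other processing that was tried. Both genes were chosen for this contrast, and leaving out 1 array could not reverse it, as the groups did not overlap. A floor of 5 on the signal, the other filters on dim probes and a block for replicate number left the differences at 7.17 and 1.39. Over 19 alternatives *Xaf1* ran from 6.04 to 7.36 and *Glod4* from 1.1 to 1.45 on the log2 scale. Leaving out 1 array at a time gave 7.03 to 7.36 for *Xaf1* and 1.34 to 1.45 for *Glod4*. *Xaf1* had the largest rise of all probes in every setting but one, the slide as a fixed block, where it ranked 2 behind a probe without a symbol at 6.95. That probe was not well above background on the wild type array of the slide. The rank of *Glod4* moved more, from 68 with normexp to 701 with no filter on dim probes. Each value rests on 1 probe, whose sequence was not used here, so a higher level of RNA and a difference in the stretch that the probe binds cannot be told apart.

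**Figure D5:**
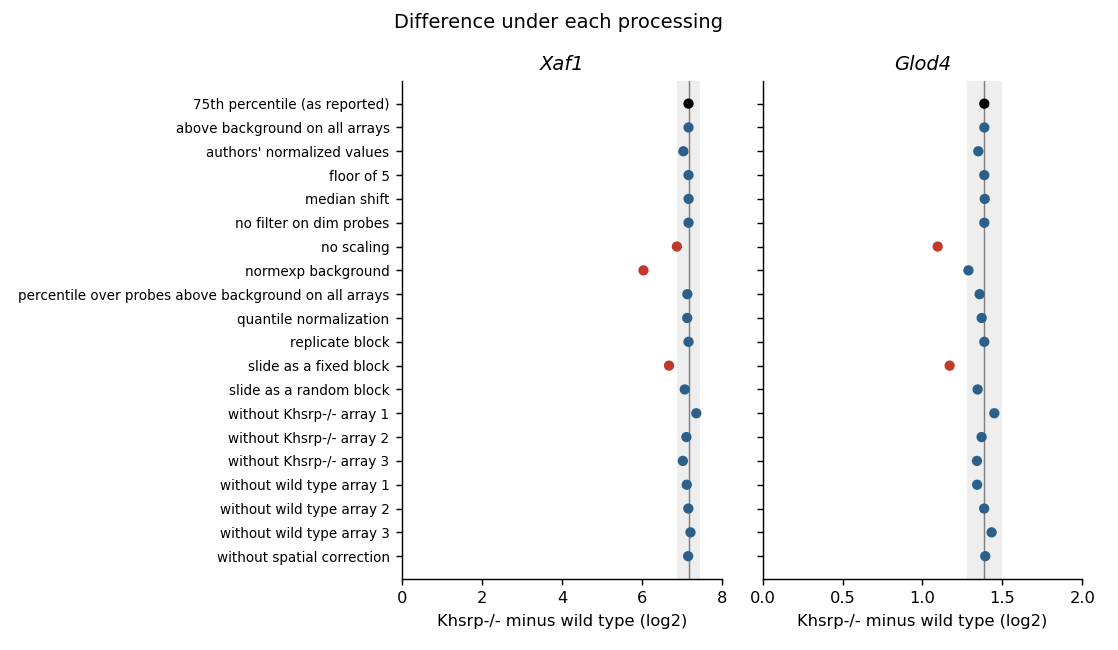
Difference in log2 signal between *Khsrp*-/- and wild type arrays for *Xaf1* and *Glod4* under each processing, with the reported value in black and its pooled SD as a grey band. Points in red moved past that band, which were 6.04, 6.68 and 6.88 for *Xaf1* and 1.1 and 1.17 for *Glod4*, and all points stayed well above 0.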

How the data were processed

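Neocortex RNA of 3 *Khsrp*-/- and 3 wild type samples was depleted of rRNA, labelled with random and oligo(dT) primers and hybridized in 1 colour. The labels do not say that each sample is a separate mouse, so calls measure only the spread between these samples, which may be technical. The authors deposited the scanner output, made with Agilent Feature Extraction 11.0.1.1, in which the processed signal is an intensity after background subtraction on a linear scale, not scaled between arrays. The scanner columns used beside it, as deposited, are the spot and background medians, its error, and marks of 0 or 1. The authors also deposited normalized log2 values of the same arrays, by a normalization that the sources used here do not name.

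Symbols came from a supplementary list of the study in which rows of the lower block were matched by their raw values, and all 266 rows matched. Its columns of fold changes and p-values hold the authors' own comparison and were not used. The members, the gene lists and the tests were chosen with earlier results of these data known. The text names both genes, the genes with a symbol of the interferon, apoptosis and glyoxalase lists and of the marker lists, those within 5 Mb, the direct neighbours, and the 5 nearest in pattern to each gene. Some Y-linked and X-linked genes are named too. A gene with several probes was read from its brightest probe by mean signal.

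Control spots, 300 negative control spots and outlier spots were left out, spots of a probe were averaged, and each array's 75th percentile was subtracted. Where 3 or more of the 6 arrays marked a probe well above background, it was fitted with limma 3.58.1 in R 4.3.3 over all 48438 probes. A probe was called at an unadjusted p under 0.05 and a difference of at least 0.32 on the log2 scale, and also after Benjamini-Hochberg adjustment. The fit was first tested on simulated data. For a gene that all wild type arrays left below that mark, the bound is the *Khsrp*-/- mean over the wild type mean of the higher of the dimmest detected signal on the array and the gene's own. Gene order, names and promoters were taken from RefSeq tables of GRCm38.p6, while the array grid names mm9, and 1705 of 1714 genes were placed. Figures were made with matplotlib 3.10.9 and tables with pandas 2.3.3.

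Alternatives were quantile normalization, a median shift, the percentile over probes detected on every array, no scaling, normexp with an offset of 50 on the median spot signal, the authors' values, other filters on dim probes, a floor of 5, the methods' t-test, trended and robust variances, leaving out arrays in turn, blocks for replicate number and, fixed or random, for slide (statmod 1.5.0), and a 1.5-fold threshold. The signal without spatial correction was chosen as an alternative after seeing the data.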

Additional observations from a re-analysis of the deposited data

How the results depend on the processing

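Over the alternatives, *Xaf1* differed by 6.88 without scaling, 6.04 with normexp and 6.68 with the slide as a fixed block, and *Glod4* by 1.1 and 1.17 in the first and the last of these, against 7.17 and 1.39. Leaving out 1 array at a time gave 7.03 to 7.36 for *Xaf1*, 1.34 to 1.45 for *Glod4*, 0.54 to 0.80 for the interferon median and 0.35 to 0.53 for the chromosome 11 median. The slide as a fixed block moved the interferon median from 0.63 to 0.31 and the chromosome 11 median from 0.41 to 0.091, and no scaling moved them to 0.34 and 0.12. Without scaling the median of all probes shifted by -0.29, and 14.4% of calls were higher where 56.8% were after scaling. Of all probes, 4484 were called higher and 3405 lower. These counts were 1221 and 7286 without scaling and 1768 and 1098 with the slide as a fixed block. A 1.5-fold threshold gave 2728 higher, the slide as a random block 2217 lower and the methods' t-test 1815 lower. Leaving out 1 array gave 2520 to 6641 higher and 1495 to 6409 lower, where 6641 and 6409 came without *Khsrp*-/- array 1. The counts were 2823 and 1966 without *Khsrp*-/- array 3, 2520 and 1495 without wild type array 1, and 2752 and 1656 without wild type array 2. The cause of these shifts was not tested.

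Deviations of same-numbered samples from their group means correlated at -0.31, 0.10 and -0.31. Samples of unlike number were not compared, so these values do not settle whether the replicate numbers pair the samples. With the replicate number as a block, 3540 probes were called higher and 2667 lower. The *Xaf1* and *Glod4* differences were again 7.17 and 1.39, which the design fixes, since each number occurs once per genotype. The small number of arrays limits each count, and the wild type signal of *Xaf1*, 4.06 to 5.61 times its local background, limits the size of its fold.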
